A study of Arabidopsis thaliana with 8 samples.

Results

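The genes carried by the plastid and mitochondrial genomes of Arabidopsis thaliana were followed in whole roots through the array's block of organelle probe sets. A probe set is a group of short oligonucleotides that reports 1 transcript or, in some cases, several. All rows in the contiguous run of ID numbers that holds these probe sets were taken, which gave 125 of the 22810 rows of the array, and 5 of them were dropped because the annotation gives only a nuclear locus. The remaining 120 probe sets comprised 72 for plastid genes, 13 for mitochondrial genes and 35 that the annotation used here does not name. Those 35 are written as their array ID after the word probe. The plastid probe sets covered 71 genes, with a pair of probe sets for rps12, out of 78 protein genes in the RefSeq table, whereas only 13 mitochondrial probe sets were named, against 32 protein genes. The rule goes by array ID and annotation and uses no measured value.

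All roots were of the Columbia ecotype, 7 days after germination, raised on medium with iron and then moved for 24 h. The 4 groups were pye-1 on -Fe medium, pye-1 on +Fe medium, wild type (WT) on -Fe medium and WT on +Fe medium, with 2 arrays each. The pye-1 line is mutant for POPEYE, a bHLH transcription factor that acts when iron is short, and in the -Fe medium 0.3 mM ferrozine, which chelates ferrous iron, took the place of the iron salt. Each array carried RNA from about 320 roots, cut below the junction with the hypocotyl, and the labels call the 2 arrays of a group biological replicates.

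Plastids and mitochondria keep small genomes of bacterial ancestry. The plastid genome encodes core subunits of the photosystems, of the cytochrome b6f complex, of the ATP synthase and of an NADH dehydrogenase-like (NDH) complex, together with the large subunit of Rubisco, part of the ribosome and an RNA polymerase of bacterial type. The mitochondrial genome encodes core subunits of the respiratory chain and proteins that attach heme to cytochromes c. Most partner subunits come from the nucleus, and the electron transport chains of both organelles are among the main users of heme and iron-sulfur clusters in a plant cell. Root plastids are largely non-green. Many plastid genes are transcribed in clusters and processed afterwards, and organelle transcripts carry poly(A) tails mostly while they are being degraded. In whole roots, fewer cells of a type and less RNA per cell cannot be told apart.

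The median signal ranged from 91.5 to 97.6 on the 8 arrays. A control level, the highest signal among 27 unspiked bacterial control probe sets, ranged from 11.7 to 23.7. The mutated gene, PYE, had a signal of 15.0 to 28.2 on the 4 pye-1 arrays and 56.7 to 150 on the 4 WT arrays, so the array signals run with the genotype labels. Differences were tested with limma on log2 signal, with the replicate number as a block, over 15922 probe sets bright enough to test. Replicate numbers 1 and 2 separated the arrays across all groups: the control probe set for 25S rRNA lay at 1691 to 4047 with replicate number 2, against 242 to 565 with replicate number 1. The 3' to 5' ratio of the GAPDH control ranged from 1.28 to 1.496 on replicate 2 arrays and from 1.28 to 1.58 on replicate 1 arrays, and that of ubiquitin from 2.61 to 3.03 on replicate 2 arrays and from 3.16 to 3.42 on replicate 1 arrays.

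Plastid transcripts were measurable in these roots almost without exception. Of the 72 plastid probe sets, all were bright enough to test and 71 lay above the control level on all 8 arrays, ndhB being at or under it on 1. Of the 13 mitochondrial probe sets 11 were tested and 9 lay above the control level on all arrays. The probe set for nad7, a subunit of respiratory complex I, lay at or under the control level on all 8 arrays, and that for matR, an intron maturase, on 4. Only 14 of the 35 unnamed probe sets were tested. In all, 97 of the 120 entered the tests. The brightest member of a role is given below only as an anchor, since signals of different probe sets cannot be compared.

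Few organelle genes were called between groups, and the share of all tested probe sets called was also small, at 0.345% to 3.05% per comparison. In each comparison 0 or 1 of the 97 tested members was called at an adjusted p of 0.05. The called members were psbT and probe-244946_at. Counts for single roles below are to be read beside these shares. In pye-1, -Fe against +Fe, 0 members were called by limma with the block and 0 without it, 10 had an unadjusted p under 0.05, and 2.65% of all tested probe sets were called. The median change of the members was -0.095 log2 units, against -0.042 for all tested probe sets, and 30 of the 97 lay above zero. In WT, -Fe against +Fe, 1 member was called, against 3.05% of all tested probe sets. The median change there was -0.085, against 0.003 for all, and 40 of the 97 lay above zero. A single call is 1.03% of the 97 members, under that background.

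Between the genotypes, 1 member was called on -Fe medium, where 1.71% of all tested probe sets were called, and 1 on +Fe medium, where 0.345% were; a single call among the members stands below the first share and above the second. The median difference of the members, pye-1 minus WT, was -0.014 on -Fe medium and 0.082 on +Fe medium, against -0.025 and 0.017 for all tested probe sets. With single arrays left out these medians ranged from -0.07 to 0.091 on -Fe medium and from -0.003 to 0.171 on +Fe medium, the lowest on +Fe medium without replicate 2 of pye-1 +Fe, so neither sign was stable. The iron response differed between pye-1 and WT for 0 members by the interaction term with the block and for 0 without it. In that test 10 members had an unadjusted p under 0.05, the smallest adjusted p was 0.0933, and 0.352% of all tested probe sets were called. The typical standard error of a member was 0.15 log2 units, and 88 of the 97 changed by less than 0.5 log2 units with iron in pye-1 and 88 in WT. Between genotypes 85 of the 97 stayed within that size on each medium.

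**Figure D1:**
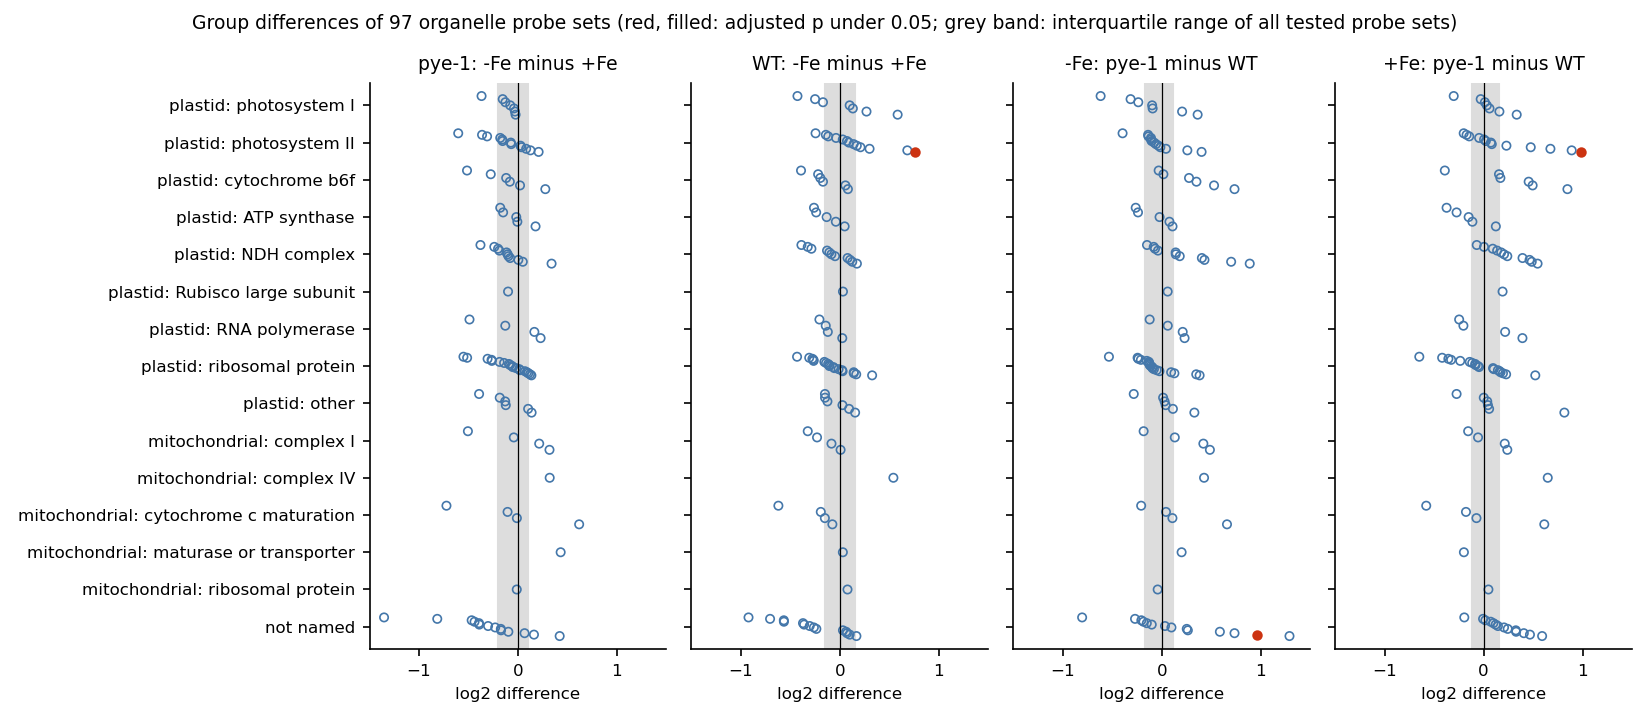
Log2 difference (horizontal axis) of the 97 tested organelle probe sets by role (vertical axis) in the 4 group comparisons, 1 circle per probe set. Filled red circles passed an adjusted p of 0.05, and the grey band spans the interquartile range of all 15922 tested probe sets. Red circles mark psbT in the WT iron response (0.76) and in pye-1 against WT on +Fe medium (0.99), and probe-244946_at in pye-1 against WT on -Fe medium (0.96).

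The psbT gene encodes a small subunit of photosystem II. Its signal was 105 and 232 in pye-1 on -Fe medium and 109 and 369 in pye-1 on +Fe medium, for replicates 1 and 2. In WT it was 112 and 263 on -Fe medium and 59.3 and 173 on +Fe medium. Replicate 2 was the higher array in every group, and within each replicate number the WT +Fe array was the lowest of the 4. The level was higher on -Fe than on +Fe medium in WT by 0.76 ± 0.17 log2 units (SE, 2 arrays per group, adjusted p = 0.0324), and by 0.92 in replicate 1 and 0.60 in replicate 2. On +Fe medium it was higher in pye-1 than in WT by 0.99 ± 0.17 (adjusted p = 0.0329). The corresponding differences were -0.36 for iron in pye-1 and -0.14 between genotypes on -Fe medium, and neither passed. Both calls share the WT +Fe arrays. Without the block the groups overlapped and the adjusted p was 0.869 for iron in WT and 0.974 for the genotype on +Fe medium. Leaving out any of the 4 arrays of a comparison also ended the call, with adjusted p of 0.0692 to 0.273 for iron and 0.0684 to 0.397 for genotype.

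The unnamed probe-244946_at read 169 and 184 in pye-1 on -Fe medium, against 81.0 and 101 in WT on -Fe medium. It read 122 and 232 in pye-1 on +Fe medium and 141 and 127 in WT on +Fe medium. The -Fe groups of the genotypes did not overlap, whereas the +Fe groups did. The difference on -Fe medium was 0.96 ± 0.22 log2 units (SE, 2 arrays per group, adjusted p = 0.0465). It did not pass without the block (adjusted p = 0.285) or without any 1 of the 4 arrays (0.131 to 0.296).

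**Figure D2:**
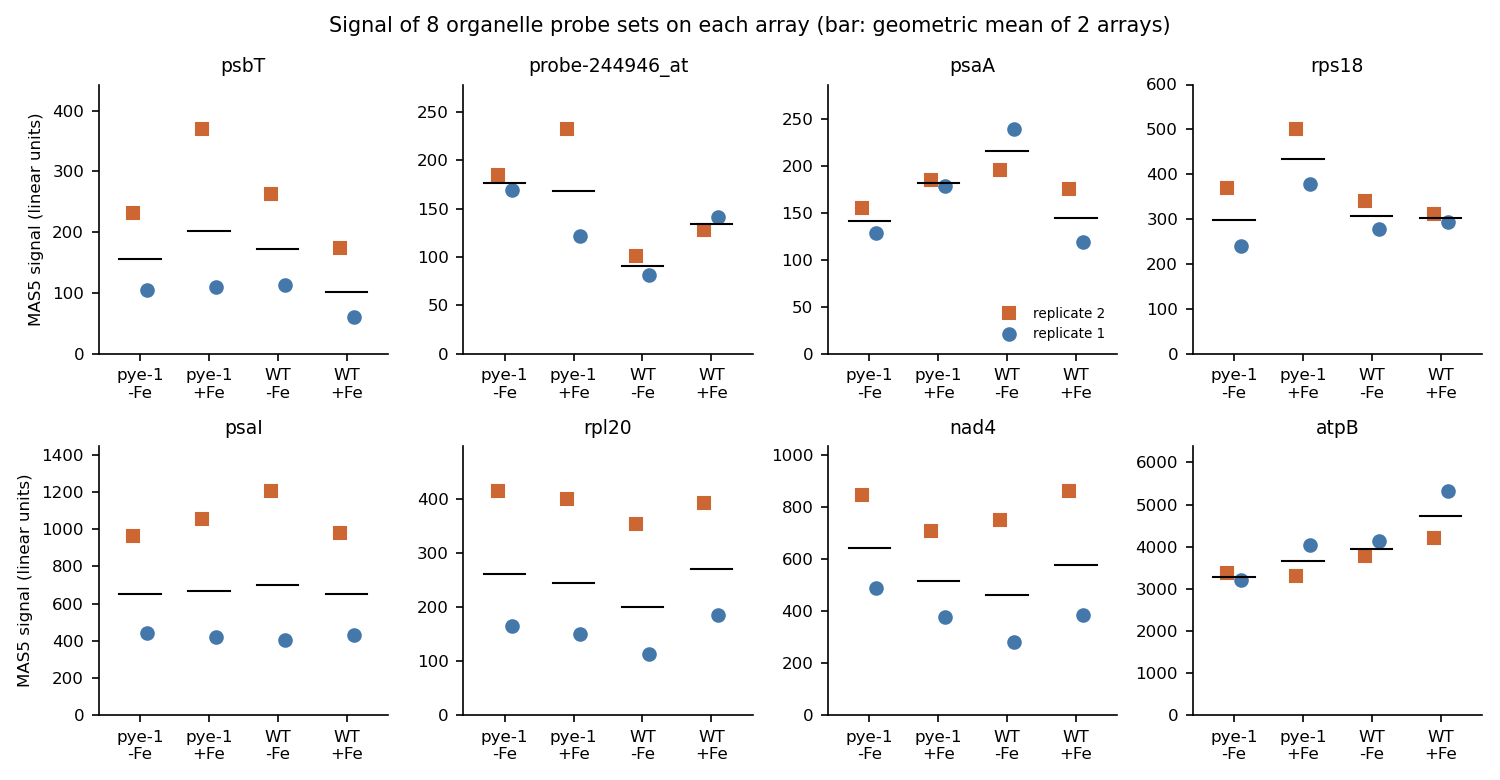
MAS5 signal in linear units (vertical axes, from 0) of 8 organelle probe sets in the 4 groups (horizontal axes), with squares for replicate 2, circles for replicate 1 and a bar at the geometric mean of both. For psbT, psaI, rpl20 and nad4 every square lies above the circle of its group, while for atpB the circle is the higher in 3 of the 4 groups.

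Photosystem I, whose core holds iron-sulfur clusters, was represented by psaA, psaB, psaC, psaI and psaJ and by the assembly factors ycf3 and ycf4, and 0 of these 7 were called in any group comparison. All 7 changes with iron in pye-1 lay between -0.37 and -0.02 log2 units, where 67 of the 97 members lay below zero. In WT 4 of the 7 lay above zero and 3 below, where 57 of the 97 members lay below. The reaction-centre gene psaA read 128 and 155 in pye-1 on -Fe medium and 179 and 185 in pye-1 on +Fe medium. In WT it read 239 and 196 on -Fe medium and 118 and 176 on +Fe medium. The WT -Fe arrays were the highest of their replicate number, and the changes with iron were -0.37 ± 0.19 in pye-1 and 0.58 ± 0.19 in WT (adjusted p = 0.400 and 0.142). The difference of these changes did not pass (-0.95 ± 0.26, adjusted p = 0.200). Its partner psaB, the brightest of the role, read 1423 and 2578 in pye-1 -Fe, 1709 and 2265 in pye-1 +Fe, 1666 and 2501 in WT -Fe and 2144 and 2748 in WT +Fe roots. Its replicates lay further apart than its groups. For psaC, the iron-sulfur subunit that passes electrons on to ferredoxin, the arrays read 137 and 196 in pye-1 -Fe, 132 and 226 in pye-1 +Fe, 93.0 and 174 in WT -Fe and 156 and 188 in WT +Fe roots. Its change with iron was -0.08 in pye-1 and -0.43 in WT.

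Of the 13 photosystem II genes psbT alone was called. The reaction-centre gene psbD, which helps to bind the non-heme iron, had the largest interaction of the plastid genes in size (-1.29 ± 0.37 log2 units, adjusted p = 0.221), with changes of -0.60 in pye-1 and 0.68 in WT. It read 70.8 and 76.3 in pye-1 -Fe, 102 and 122 in pye-1 +Fe, 113 and 82.8 in WT -Fe and 45.6 and 79.5 in WT +Fe roots. The -Fe and +Fe arrays did not overlap in either genotype, with -Fe the lower in pye-1 and the higher in WT. The small subunit psbM, the brightest of the role, read 4168 and 4564 in pye-1 -Fe, 3260 and 5619 in pye-1 +Fe, 4337 and 5101 in WT -Fe and 3180 and 5210 in WT +Fe roots. The antenna gene psbC had changes of -0.18 in pye-1 and -0.24 in WT, with 376 and 367 in pye-1 -Fe, 456 and 387 in pye-1 +Fe, 442 and 376 in WT -Fe and 502 and 465 in WT +Fe roots. For psbC the -Fe arrays were below their +Fe partners in both genotypes, though neither change passed the test.

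The cytochrome b6f genes link the photosystems, and 0 of 6 were called in any group comparison. Cytochrome b6, encoded by petB, read 2306 and 2575 in pye-1 -Fe, 2417 and 2893 in pye-1 +Fe, 2536 and 2444 in WT -Fe and 2259 and 2448 in WT +Fe roots. Those values span a narrow range, and its changes with iron were -0.12 and 0.08 in pye-1 and WT. The small subunit petG read 56.9 and 61.2 in pye-1 -Fe, 62.1 and 114 in pye-1 +Fe, 26.9 and 62.1 in WT -Fe and 47.1 and 46.6 in WT +Fe roots, with changes of -0.51 and -0.20. On +Fe medium 5 of the 6 genes lay above zero for pye-1 against WT, with a median of 0.31, as did 63 of the 97 members. Within replicate 2 the b6f count was 5 with a median of 0.45, and within replicate 1 it was 4 with a median of 0.12.

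The plastid ATP synthase had 5 probe sets, 0 of them called. Its beta subunit gene atpB read 3199 and 3380 in pye-1 -Fe, 4033 and 3298 in pye-1 +Fe, 4133 and 3768 in WT -Fe and 5325 and 4201 in WT +Fe roots. Each pye-1 array lay below its WT partner of the same medium and replicate number, by 0.26 log2 units on -Fe medium and 0.38 on +Fe medium, with adjusted p of 0.306 and 0.176. The epsilon subunit gene atpE read 4328 and 4011 in pye-1 -Fe, 4282 and 4144 in pye-1 +Fe, 4024 and 3708 in WT -Fe and 4788 and 4339 in WT +Fe roots. The large subunit of Rubisco, rbcL, changed with iron by -0.10 in pye-1 and 0.03 in WT.

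Of 11 NDH genes, whose complex feeds electrons back into the plastid chain, 0 were called in a group comparison. On +Fe medium 10 of the 11 lay above zero for pye-1 against WT, with a median of 0.21 log2 units, as did 63 of the 97 members. Within replicate 2 the count was 10 of 11 with a median of 0.62, and within replicate 1 it was 6 of 11 with a median of 0.04. On -Fe medium 7 of the 11 lay above zero, with a median of 0.14, as did 48 of the 97 members. There the count was 8 within replicate 2 and 7 within replicate 1, with medians of 0.19 and 0.22. The closest to the threshold was ndhE on -Fe medium (0.70 ± 0.17, adjusted p = 0.0606), which read 176 and 304 in pye-1 -Fe, against 108 and 188 in WT -Fe roots. It read 151 and 397 in pye-1 +Fe, against 142 and 244 in WT +Fe roots. The iron-sulfur subunit ndhI read 1426 and 1366 in pye-1 -Fe, 1582 and 1405 in pye-1 +Fe, 1595 and 1289 in WT -Fe and 1483 and 1241 in WT +Fe roots. For ndhG the arrays read 170 and 210 in pye-1 -Fe, 150 and 403 in pye-1 +Fe, 119 and 165 in WT -Fe and 178 and 173 in WT +Fe roots. The replicate 2 array of pye-1 on +Fe medium was the highest for ndhG.

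Among the genes of plastid gene expression, 0 of 4 RNA polymerase subunits and 0 of 19 ribosomal protein probe sets were called in a group comparison. The alpha subunit gene rpoA read 1833 and 2028 in pye-1 -Fe, 2041 and 2172 in pye-1 +Fe, 1532 and 1810 in WT -Fe and 1825 and 1797 in WT +Fe roots. The beta subunit gene rpoB was dim, with 54.9 and 37.8 in pye-1 -Fe, 46.0 and 88.8 in pye-1 +Fe, 60.7 and 40.4 in WT -Fe and 55.0 and 43.1 in WT +Fe roots. Of the ribosomal proteins rps18 came closest, at -0.55 ± 0.14 log2 units with iron in pye-1 (adjusted p = 0.0533). It read 239 and 369 in pye-1 -Fe, against 378 and 500.0 in pye-1 +Fe roots, and 278 and 340 in WT -Fe, against 294 and 312 in WT +Fe roots. Its neighbour rpl33 read 680 and 1282 in pye-1 -Fe, 1049 and 1692 in pye-1 +Fe, 1337 and 1366 in WT -Fe and 1421 and 1406 in WT +Fe roots. For rps18 and rpl33 the pye-1 -Fe array lay below the pye-1 +Fe array in both replicates. The brightest, rpl2, read 3571 and 4064 in pye-1 -Fe, 4158 and 4234 in pye-1 +Fe, 4423 and 3930 in WT -Fe and 4361 and 4306 in WT +Fe roots.

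Of the remaining plastid genes, clpP, the catalytic subunit of a protease, read 2032 and 3506 in pye-1 -Fe, 2054 and 2862 in pye-1 +Fe, 2420 and 2888 in WT -Fe and 2675 and 3212 in WT +Fe roots. The large open reading frame ycf2 read 61.5 and 54.9 in pye-1 -Fe, 47.3 and 123 in pye-1 +Fe, 48.7 and 43.8 in WT -Fe and 39.3 and 47.7 in WT +Fe roots. None of the 6 genes in this class, which also holds accD, ccsA, cemA and ycf1, was called between groups in the blocked fit, and 0 were called without the block. At an unadjusted p under 0.05 there were 0 for iron in pye-1, 0 for iron in WT, 1 between genotypes on -Fe medium and 2 on +Fe medium.

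The plastid members include 10 whose proteins bind iron themselves, as heme, iron-sulfur clusters or non-heme iron: psaA, psaB, psaC, petA, petB, psbD, psbE, psbF, ndhI and ndhK. This list was compiled with results known and is described only. With iron withdrawn, 0 of the 10 were called in either genotype. Their changes ranged from -0.60 to -0.04 log2 units in pye-1, all 10 below zero, with a median of -0.106. Of the 97 members 67 lay below zero there, with a median of -0.095, so the medians were close. In WT the 10 ranged from -0.43 to 0.68 with 3 below zero and a median of 0.068. Of the 97 members 57 lay below zero in WT, with a median of -0.085.

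The mitochondrial genes gave 0 calls between groups among the 11 tested. The complex I subunit nad4 read 490 and 849 in pye-1 -Fe, 377 and 708 in pye-1 +Fe, 282 and 752 in WT -Fe and 384 and 863 in WT +Fe roots. It was higher on -Fe than on +Fe medium in both pye-1 replicates and lower in both WT replicates, by 0.32 ± 0.14 and -0.32 ± 0.14 log2 units, and the interaction did not pass (0.64 ± 0.20, adjusted p = 0.247). The dim nad4L read 25.2 and 33.2 in pye-1 -Fe, 31.5 and 53.6 in pye-1 +Fe, 31.7 and 34.1 in WT -Fe and 33.0 and 36.7 in WT +Fe roots. Of the cytochrome c maturation genes, which serve heme attachment, ccmFN1 read 534 and 1373 in pye-1 -Fe, 636 and 1170 in pye-1 +Fe, 551 and 1144 in WT -Fe and 589 and 1398 in WT +Fe roots. Its 4 replicate 2 values all exceed its 4 replicate 1 values, while its largest group difference was -0.19. The heme-exporter subunit gene ccmB read 18.1 and 65.2 in pye-1 -Fe, 45.3 and 70.8 in pye-1 +Fe, 26.7 and 41.7 in WT -Fe and 36.3 and 37.8 in WT +Fe roots, with 1 array at or under the control level. Cytochrome oxidase subunit cox2 was also at or under it on 1 array, and the standard error of its changes was 0.61 log2 units.

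The larger difference among these genes ran between the replicate numbers. On replicate 2 arrays 42 of the 97 members were higher than on replicate 1 arrays and 2 were lower, in limma's test of the block term over all 4 groups. That is 43.3% of the members higher, against 5.04% of all tested probe sets. In the other direction 4.03% of all tested probe sets were lower, and in both directions together 9.08% were called. The median replicate difference was 0.37 log2 units for the members and -0.002 for all tested probe sets. Without either array of pye-1 on +Fe medium 25 members were called in place of 44 in both directions, and without the intensity trend in the test 9.

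The difference held in each group. The median replicate difference of the members was 0.43 in pye-1 -Fe, 0.53 in pye-1 +Fe, 0.24 in WT -Fe and 0.23 in WT +Fe roots. Of the 97 members 54 (55.7%) were higher on the replicate 2 array in all 4 groups, against 16.6% of all tested probe sets, and 6 (6.19%) were lower in all 4, against 15.7%. By organelle, 32 of 72 plastid probe sets were higher and 1 lower, with a median of 0.34, and 6 of 11 mitochondrial ones were higher and 0 lower, with a median of 0.80. Of the 14 unnamed probe sets 4 were higher and 1 lower.

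**Figure D3:**
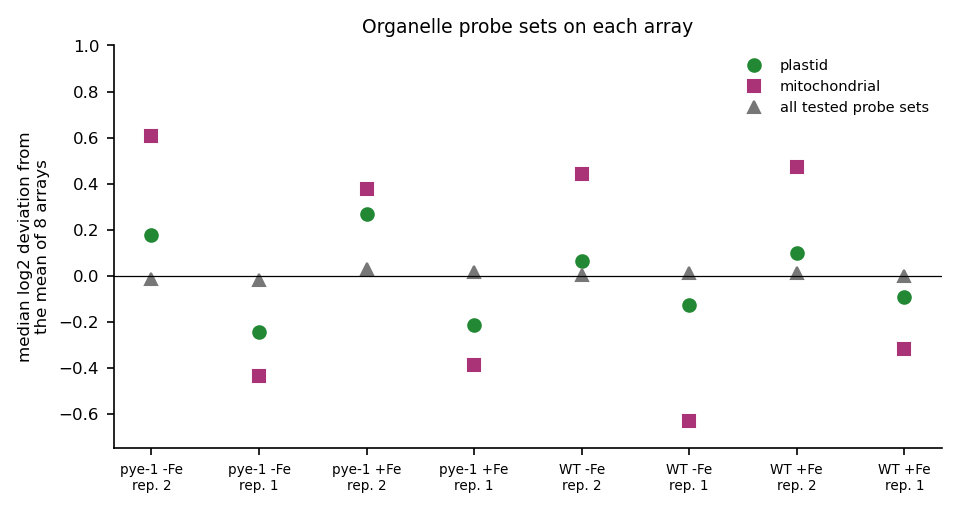
Median log2 deviation from the mean of the 8 arrays (vertical axis) on each array (horizontal axis), for the 72 plastid probe sets (circles), the 11 mitochondrial probe sets (squares) and all tested probe sets (triangles). Plastid medians are 0.07 to 0.27 on replicate 2 arrays and -0.24 to -0.09 on replicate 1 arrays, mitochondrial medians are 0.38 to 0.61 and -0.63 to -0.32, and triangles lie between -0.02 and 0.031.

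The difference was uneven across genes. The 11 members above 1 log2 unit all passed the test, and they came from several roles. Of the plastid genes they were psbT, psaI and psaJ of the photosystems, the ribosomal protein genes rpl20 and rps2, and accD for a subunit of acetyl-CoA carboxylase. The others were the mitochondrial rpl16/rps3, ccmFN1, nad4 and mttB, a gene for a TatC-like protein translocase, and the unnamed probe-244990_s_at. The highest difference was 0.94 among the NDH genes, 0.74 among those of the ATP synthase, 0.74 among those of the RNA polymerase and 0.65 among those of cytochrome b6f. For psaI the 4 replicate 2 arrays ranged from 964 to 1207 with a median of 1017, and the 4 replicate 1 arrays from 403 to 442 with a median of 426, a difference of 1.30 ± 0.08 log2 units (SE, 4 arrays each, adjusted p = 1.36e-05). For rpl20 the replicate 2 arrays ranged from 353 to 414 and the replicate 1 arrays from 113 to 186 (1.37 ± 0.10, adjusted p = 1.93e-05). The replicate ranges did not overlap for either gene, and each range holds all 4 combinations of genotype and medium. The mitochondrial probe set shared by rpl16 and rps3 ranged from 858 to 1037 on replicate 2 arrays and from 405 to 439 on replicate 1 arrays (1.21 ± 0.08, adjusted p = 1.36e-05). The replicate 2 range of accD was 512 to 627 and its replicate 1 range 238 to 262.

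Other members stayed level or ran the other way. The replicate difference was 0.01 ± 0.06 log2 units for rpl2 and -0.02 for rpl22. The heme-binding photosystem II subunit gene psbF was lower on replicate 2 arrays, with 662 to 758, against 764 to 978 on replicate 1 arrays (-0.31 ± 0.07, adjusted p = 0.0207). The other member lower was probe-244979_at, with 779 to 954 on replicate 2 arrays and 1054 to 1156 on replicate 1 arrays (-0.41). Both were lower in every one of the 4 groups, as were ndhI, psbC, atpE and probe-244957_at, whose replicate differences did not pass the test. The ndhI ranges did not overlap either, with 1241 to 1405 on replicate 2 arrays and 1426 to 1595 on replicate 1 arrays.

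**Figure D4:**
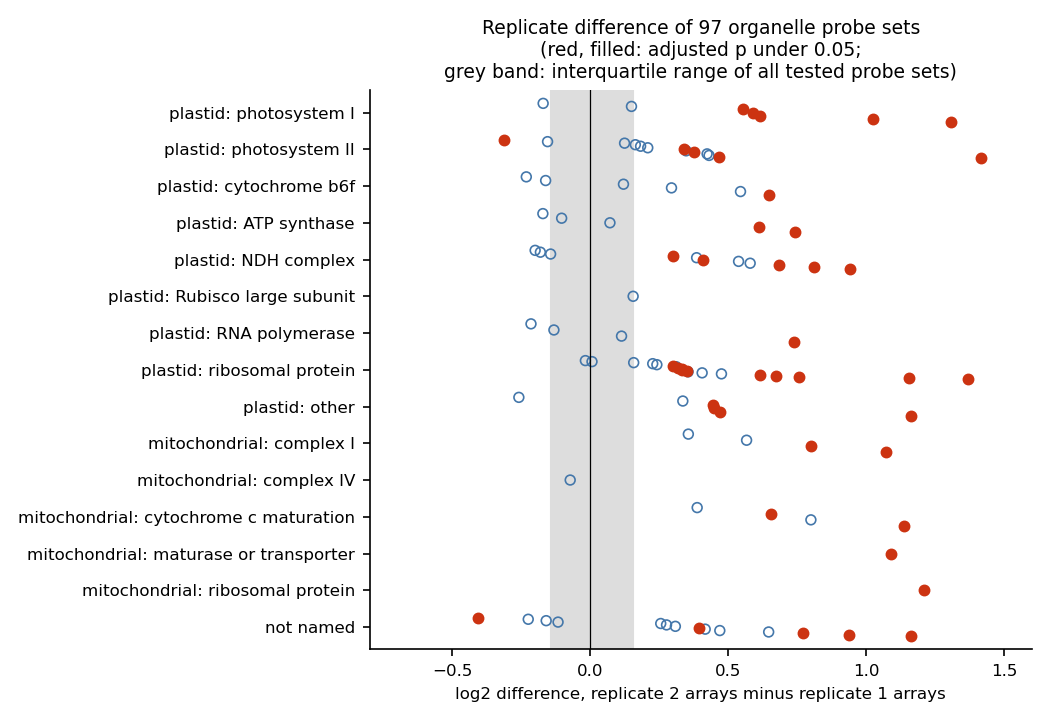
Log2 difference of replicate 2 minus replicate 1 arrays (horizontal axis) for the 97 tested organelle probe sets by role (vertical axis), 1 circle per probe set. Filled red circles passed an adjusted p of 0.05 (42 higher, 2 lower), and the grey band spans the interquartile range of all tested probe sets.

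Genes next to each other on the plastid genome did not share the difference closely. Across 67 pairs of neighbouring plastid genes the replicate differences correlated at Pearson's r = 0.16, and across the 72 plastid probe sets they correlated with mean log2 signal at r = -0.13. Both describe probe sets on the same 8 arrays, which are not independent. In the stretch from rps2 to rpoB the differences were 1.153 for rps2, 0.74 for rpoC2, -0.22 for rpoC1 and -0.13 for rpoB. In the stretch from accD to petA they were 1.16 for accD and 1.30 for psaI, and then -0.17 for ycf4, -0.26 for cemA and -0.16 for petA. Around psbT (1.42), the genes psbB, psbH and petB had 0.43, 0.21 and 0.12. Next to psbT, psbN differed by -0.53 in pye-1 -Fe roots and by 0.54 to 0.80 in the other groups. In these stretches, chosen after the values were seen, high and low members lay side by side.

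**Figure D5:**
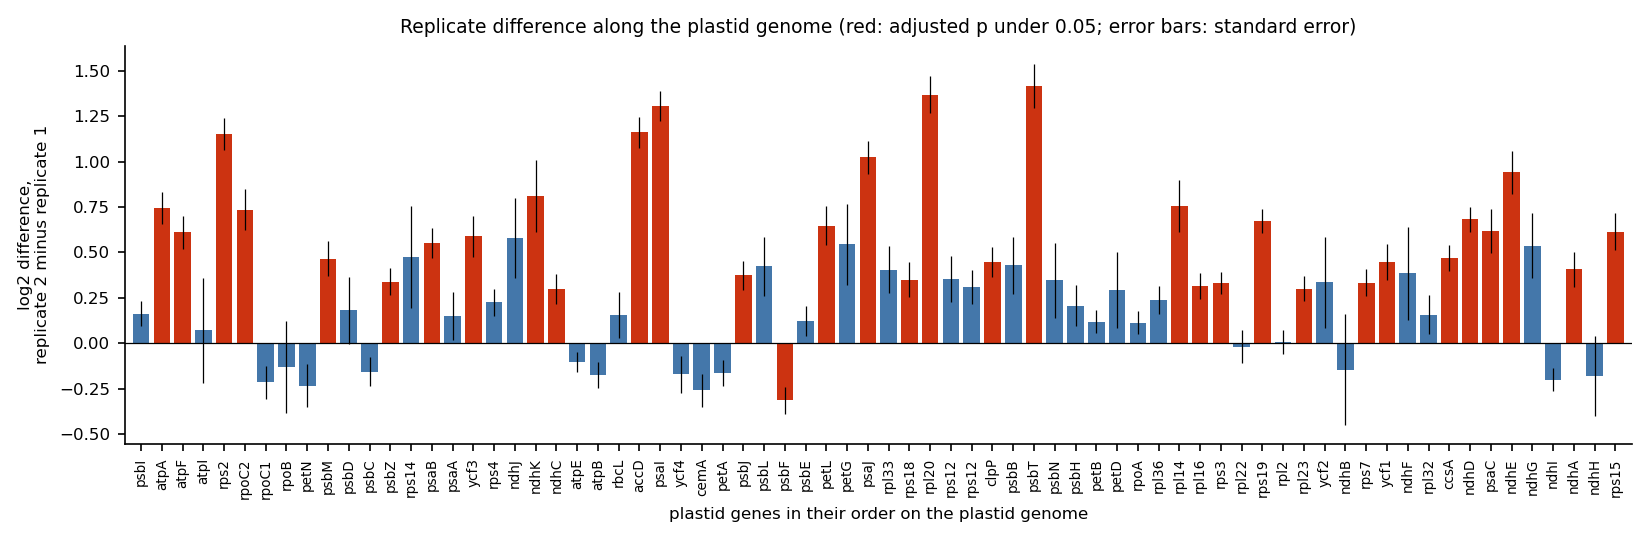
Log2 difference of replicate 2 minus replicate 1 arrays (vertical axis) for the 72 plastid probe sets in the order of their genes on the plastid genome (horizontal axis, gene names), with standard errors as error bars and red for an adjusted p under 0.05. The highest bars, psbT (1.42), rpl20 (1.37) and psaI (1.30), rise above most of their neighbours, and accD (1.16) next to psaI is nearly as high.

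Nuclear genes for the same complexes were set beside the organelle genes, as far as the annotation names their probe sets. Of 37 nuclear photosynthesis loci 5 were named and tested. In both genotypes 1 of the 5 was lower on -Fe than on +Fe medium, where 2.65% of all tested probe sets were called in pye-1 and 3.05% in WT: PSAN, a photosystem I subunit, fell by 0.76 ± 0.17 log2 units in pye-1 (adjusted p = 0.0304) and by 0.93 ± 0.17 in WT (adjusted p = 0.00798). The medians of the 5 were -0.45 in pye-1 and -0.36 in WT, against -0.086 and -0.060 for the 72 plastid probe sets. All 5 lay below zero in pye-1 and 4 in WT, where PSAE-1 changed by 0.13. These 5 genes also mark green tissue. By replicate number 0 of the 5 were called by limma and 2 had an unadjusted p under 0.05, with a median difference of -0.059. Those 2 went opposite ways on replicate 2 arrays, with 0.23 ± 0.08 log2 units for RCA and -0.46 ± 0.19 for PSAE-1. The part of green tissue, of the 25S control or of RNA quality in the replicate difference of the organelle genes was not tested.

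Of 28 nuclear respiration loci 14 were tested. On -Fe medium 3 of the 14 were higher in pye-1 than in WT, where 1.71% of all tested probe sets were called in either direction: CYTC-2, a cytochrome c (0.66 ± 0.13 log2 units, adjusted p = 0.0181), and SDH2-1 and SDH2-2, iron-sulfur subunits of succinate dehydrogenase (0.50 ± 0.10, adjusted p = 0.0181, and 0.45 ± 0.09, adjusted p = 0.0275). SDH2-1 has a further probe set, which was too dim to be tested. The median of the 14 was 0.024. By replicate number 3 of the 14 were higher on replicate 2 arrays, against 5.04% of all tested probe sets, with a median of 0.001, against 0.80 for the mitochondrial genome's own genes. Of 7 loci of the alternative respiratory pathways 2 were tested, NDB1 and NDB2, and of 17 loci for organelle transcription 1, the RNA polymerase gene RPOTmp. None of these 3 was called in a group comparison.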

How the data were processed

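Whole-root RNA was hybridised to 8 Affymetrix 1-colour arrays after one-cycle amplification. The deposited values are intensities on a linear scale, made with MAS5 per the submitters' processing notes (version not given in the sources used here), without detection calls. MAS5 subtracts mismatch signal, so dim probe sets scatter on the log scale. The log2 of each value was taken with no pseudocount or further normalization. Control probe sets (64) were removed, then the dimmest 30% of the 22746 others by mean log2 signal (below 23.3 signal units), leaving 15922.

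Of the 120 members 76 have 1 symbol and 1 annotated entry, 8 have 1 symbol with both copies of a repeated plastid gene, 1 has several symbols and 35 have none. That 1, rpl16/rps3, was taken as mitochondrial because its entries differ from the plastid ones. Gene names and order come from the platform annotation and RefSeq's TAIR10.1 table. Some mitochondrial probe sets match several transcripts, and a copy of mitochondrial DNA on a nuclear chromosome could add to their signal. No coordinates or sequences are given. Members and gene lists were chosen with earlier results of these data known.

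Differences were fitted with limma 3.58.1 in R 4.3.3 (1 mean per group, replicate number as a block, eBayes with an intensity trend, Benjamini-Hochberg over all tested probe sets, threshold 0.05). There were 3 residual and 9.41 prior degrees of freedom, and the number of arrays limits the precision. Replicate numbers come from the sample titles, which do not say what they mark. Between any 2 groups, arrays with the same number deviated together (Pearson's r of 0.178 to 0.302 over the 6 pairs), so the numbers were taken to pair the samples. P-values rest on the spread left between these samples after group means and the replicate difference are taken out, moderated over all tested probe sets. For the replicate difference itself they do not measure how far further replicate numbers would differ. With 2 arrays a group, an exact permutation test could reach 0.333 at best even if the pairing were ignored, so none was run. Values on all arrays are given for members called in a group comparison and, per role, for the brightest and the one with the largest mean iron response; further members shown were chosen after their values were seen. The fit was tested on simulated data. Alternatives were no block, no filter on dim probe sets, signals raised to the control level, quantile normalization, median centring, no trend, and each array left out.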

Additional observations from a re-analysis of the deposited data

How the results depend on the processing

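Without the replicate block, 0 organelle probe sets were called in each of the 5 group comparisons. The calls of psbT (iron in WT, genotype on +Fe medium) and probe-244946_at (genotype on -Fe medium) likewise came to 0 with no filter on dim probe sets and 0 with no intensity trend. They stood under quantile normalization, under median centring (which gave 2 for the genotype on -Fe medium, adding ndhE) and with signals raised to the control level. With each array left out in turn, counts ranged from 0 to 3 for iron in pye-1 (3 without replicate 2 of pye-1 -Fe), 0 to 1 for iron in WT, 0 to 2 for the genotype on -Fe medium and 0 to 1 on +Fe medium, and stayed at 0 for the interaction. The median change with iron ranged from -0.15 to -0.028 in pye-1 and from -0.154 to 0.002 in WT, and was -0.099 in WT after median centring. The replicate difference kept a median of 0.305 to 0.423 and 25 to 45 calls with each array left out, the 25 without either pye-1 +Fe array. With no intensity trend it had 9 calls. The cause was not tested. The 15 called differences of named members were the group calls of psbT and probe-244946_at and the replicate differences with the smallest p. Pooled over these alternatives, the call held in 173 refits and was lost in 25. The pooled count mostly describes the replicate differences, which passed in 12 or 13 of 13 refits each. Leaving out either array of a group gives the same replicate difference. Those refits therefore come in equal pairs, and the count overstates how many separate checks were made. The group calls of psbT and probe-244946_at passed in only 7 of 14 refits each. Those passes include the refits that left out an array outside the comparison. Of 18 differences not called, 243 refits stayed short of the threshold and 9 passed it. In 0 refits did the direction turn, but many of them could not turn it. The estimate of a group difference is the same without the block, the filter or the trend, and without an array outside the comparison. Dim probe sets such as nad7, matR, ccmB and cox2 lie near the control level, which limits what their values can show.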

Other observations

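Among the 5 probe sets dropped as nuclear only, all at chromosome 2 loci, 4 were tested. They lie in the array's organelle block, and whether they read nuclear or mitochondrial transcripts was not tested. The probe set of AT2G07708 was 1.05 ± 0.10 log2 units higher on replicate 2 than on replicate 1 arrays, and that of AT2G07751 0.83 ± 0.09 (SE, 4 arrays each). Limma gave them an adjusted p of 9.67e-05 and 0.000407, where 9.08% of all tested probe sets were called. Those of AT2G07674 and AT2G07776 differed by 0.53 ± 0.26 and -0.76 ± 0.46, and neither passed (adjusted p = 0.213 and 0.329). In WT +Fe roots AT2G07776 read 35.4 on replicate 1 and 4.18 on replicate 2, the latter under the control level of 23.7 of that array. For replicates 1 and 2 it read 44.4 and 41.9 in pye-1 -Fe, 50.3 and 70.85 in pye-1 +Fe and 41.9 and 32.9 in WT -Fe roots.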
